A study of Prunus dulcis and Prunus persica and Prunus persica x Prunus dulcis with 15 samples.

Results

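The 200 most abundant leaf transcripts are the 200 peach gene models, of 22274 in the deposited count table, with the highest mean level over the 9 RNA-seq libraries of the study. The level is the count of a gene model divided by the sum of its library's column and multiplied by 1000000 (CPM). The members were chosen by their mean CPM, which ran from 19105 to 548.9, with a median of 844.2. Since the rule used these levels, the levels of the members and their shares of the libraries are a description and carry no test.

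The study compared fully expanded leaves of 1 interspecific F1 hybrid, a single genotype that stands for no other cross, with those of its parents, peach (Prunus persica) cv Early Gold and almond (Prunus dulcis) cv Texas. All were normally watered trees grown in the field and not treated further, and their leaves were taken at the end of September. Each genotype had 3 RNA-seq libraries, numbered 1, 2 and 3 in the hybrid, 1, 3 and 4 in peach and 1, 2 and 3 in almond. The reads of all genotypes were counted on peach gene models. For a member lower in almond, a lower transcript level and a poorer match of almond reads to the peach sequence cannot be told apart in these counts. This applies also to the almond alleles of the hybrid. The paper mapped the reads to almond gene models as well, and it reported that the levels of orthologous genes were very closely correlated. That mapping was not used here. The labels do not say whether the libraries of a genotype came from different trees, and the p-values measure the spread between these libraries. The age of the trees is not given in the sources used here.

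In a mature leaf, messenger RNA is typically dominated by a limited set of nuclear genes, many of them coding for proteins of the chloroplast such as the small subunit of Rubisco, chlorophyll-binding proteins and photosystem subunits, beside housekeeping genes. In an F1 hybrid every gene has an allele from each parent. If each allele keeps the activity it has in its parent, the hybrid lies at the arithmetic mean of the parents, the mid-parent level, and it is then called additive. A level at one parent is called dominant, and a level above or below both is called transgressive. The files do not pair the peach IDs with gene names or products, and 0 of the 22274 IDs occurred in the gene table at hand, which is that of almond. Members are therefore named by ID, no role is given to any of them, and the markers of leaf cells could not be checked.

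The libraries held 7485763 to 17725455 read pairs, and each pair was counted as 2 in the table. All 200 members passed the filter on low counts and were tested among 19085 features, 19036 genes and 49 families of transposable elements. The lowest count of any member in any library was 52 in almond library 1. Replicate libraries differed by more than counting error, with a chi-squared value per degree of freedom between 11.3 and 49.3 over the genes, so that none is a copy of another. Within genotypes, hybrid library 1 and almond library 3 stood apart from the other two for most members, as described with the replicate spread.

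The members took 26.6, 28.0 and 27.4% of the counts in hybrid libraries 1, 2 and 3, against 28.7, 30.3 and 28.5% in peach libraries 1, 3 and 4 and 25.6, 27.2 and 28.7% in almond libraries 1, 2 and 3. The means were 27.3% ± 0.702 in the hybrid, 29.2% ± 1.01 in peach and 27.2% ± 1.54 in almond (SD, n = 3 each). Every peach library was above every hybrid library, while peach and almond overlapped. In each genotype these shares fell on less than 1 in 100 of the gene models.

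The 10 most abundant members took 7.84% ± 0.725 of the counts in the hybrid, 8.46% ± 0.518 in peach and 7.87% ± 1.2 in almond. The members of rank 11 to 200 took 19.5% ± 0.181 in the hybrid, 20.7% ± 0.623 in peach and 19.3% ± 0.528 in almond (SD, n = 3 each), and here the 3 peach libraries lay above all libraries of the other genotypes. Counted within each library on its own ranking, 146 to 161 genes made up 25% of the counts in the hybrid, 112 to 130 in peach and 125 to 171 in almond. For 50% of the counts, 989 to 1012 genes were needed in the hybrid, 844 to 921 in peach and 919 to 1071 in almond. The peach libraries were the most concentrated on few genes, with an overlap with almond library 3 only.

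**Figure D1:**
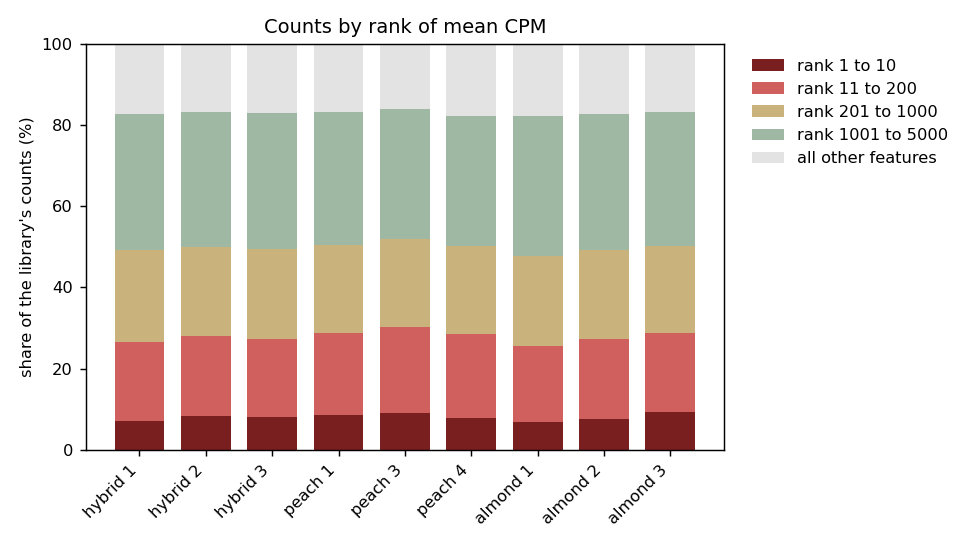
Share of the counts of each library (vertical axis, percent) taken by genes in bands of rank of the mean CPM, for the 3 hybrid, 3 peach and 3 almond libraries (bars). The lower 2 segments are the members, which together reach 26.6 to 28.0% in the hybrid, 28.5 to 30.3% in peach and 25.6 to 28.7% in almond.

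Only 6 members exceeded a mean of 5000 CPM, 26 exceeded 2000 CPM and 81 exceeded 1000 CPM. The highest, Prupe.2G238800.1, had 13432, 21601 and 20720 CPM in the hybrid libraries, 22374, 17946 and 16165 CPM in the peach libraries and 16107, 17336 and 26268 CPM in the almond libraries. On average this single gene model took 1.86% ± 0.448 of the counts in the hybrid, 1.88% ± 0.320 in peach and 1.99% ± 0.555 in almond (SD, n = 3 each). The ranges of the 3 genotypes overlapped, and the lowest value was that of hybrid library 1.

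The next, Prupe.3G157200.1, had 10048, 14176 and 14002 CPM in hybrid libraries, 12684, 18094 and 14452 CPM in peach libraries and 14249, 15907 and 19949 CPM in almond. Here too the genotypes overlapped and hybrid library 1 was the lowest of the 9 libraries. Prupe.4G181500.1 had 14426, 11089 and 9392 CPM in hybrid libraries, 10724, 9591 and 9588 CPM in peach libraries and 6664, 7181 and 8828 CPM in almond, and the 3 almond libraries were below all others. Its log2 fold change between hybrid and almond was 0.64 ± 0.218 (SE) and did not pass the test (adjusted p = 0.0899, quasi-likelihood test of edgeR, adjusted by Benjamini-Hochberg over all features).

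Prupe.6G070800.1, Prupe.8G085100.1, Prupe.8G083400.1, Prupe.4G025900.1, Prupe.4G220800.1 and Prupe.1G412100.1, with means of 9183, 7904, 5523, 4033, 3577 and 3304 CPM, had log2 fold changes between −0.42 and 0.39 in the 3 comparisons, and none passed. Among the 10 most abundant, only Prupe.1G475400.1 was called different between genotypes. It had 1336, 3052 and 2903 CPM in hybrid libraries, 6083, 5942 and 8238 CPM in peach libraries and 1014, 799 and 1232 CPM in almond. The genotypes did not overlap, and the hybrid lay between the parents in all of its libraries. Its log2 fold changes were 1.27 ± 0.296 between hybrid and almond (adjusted p = 0.0176), −1.53 ± 0.298 between hybrid and peach (adjusted p = 0.00682) and 2.80 ± 0.312 between peach and almond (adjusted p = 4.46e-05, edgeR, SE).

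**Figure D2:**
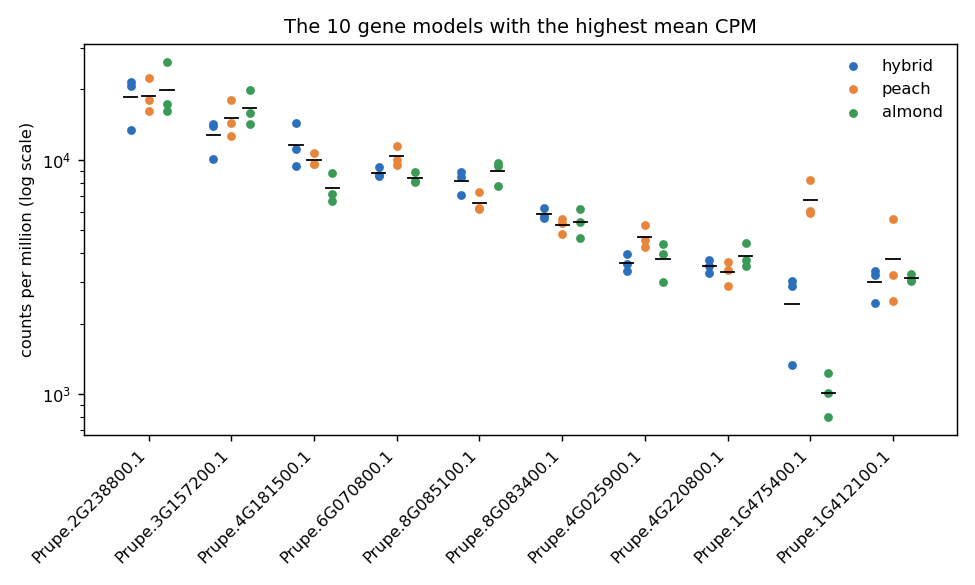
Level of the 10 gene models with the highest mean CPM (vertical axis, CPM on a log scale) in each library, with points for the hybrid, peach and almond libraries and bars for the mean of 3. Prupe.1G475400.1 is the one whose genotypes stand apart, with peach at 5942 to 8238 CPM above the hybrid at 1336 to 3052 CPM and almond at 799 to 1232 CPM.

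At the limit of the rule the values were close. The last members, Prupe.1G146600.1, Prupe.7G050900.1 and Prupe.5G143100.1, had means of 551.2, 549.4 and 548.9 CPM, and the first gene models outside it, Prupe.5G051000.1, Prupe.8G088700.1 and Prupe.7G261300.1, had 545.8, 542.7 and 540.5 CPM. A mean over 9 libraries also lets in genes that are abundant in part of the genotypes. Of the 200 most abundant gene models of each genotype taken alone, 187 of the hybrid's (93.5%), 176 of peach's (88.0%) and 170 of almond's (85.0%) were members. The hybrid's own list shared 165 genes (82.5% of each list) with that of peach and 168 (84.0%) with that of almond, and the parents' lists shared 149 (74.5%). In all, 140 members (70.0%) were in the lists of all 3 genotypes.

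The other members were split. In the lists of hybrid and peach but not of almond there were 24, and in those of hybrid and almond but not of peach 21, while 8 were in those of both parents and not in the hybrid's. Of the remaining 7 members, 4 were in the list of peach only, 2 in that of the hybrid only and 1 in that of almond only. Prupe.7G050900.1, just inside the limit, was such a mixed case, at 1570, 909 and 323 CPM in hybrid libraries and 765, 879 and 360 CPM in peach libraries, against 49.3, 37.0 and 52.7 CPM in almond libraries.

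The first comparison was that of the parents, peach against almond. A call needed both an adjusted p under 0.05 in edgeR's quasi-likelihood test and an absolute log2 fold change no smaller than 1. Of the 200 members 33 (16.5%) were called, 24 higher and 9 lower in peach. Over all 19085 features 21.5% were called, 11.2% higher and 10.3% lower. The difference between these shares was not tested. Without a minimum fold change, 54 members were called, 40 higher and 14 lower in peach, against 32.7% of all features, 17% higher and 15.6% lower. The median log2 fold change of the members was 0.14, beside 0.00 for all features, and it was 0.02 without peach library 3.

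The members with the highest fold changes were nearly absent from the almond libraries. Prupe.4G225300.1 had 881, 1038 and 1053 CPM in hybrid libraries, 2236, 2412 and 2588 CPM in peach libraries and 3.47, 6.15 and 7.88 CPM in almond. The 3 genotypes were fully apart, and the peach to almond log2 fold change was 8.75 ± 0.333 (SE, adjusted p = 2.11e-08, edgeR). Prupe.5G237200.1 had 109, 313 and 320 CPM in hybrid libraries, 1749, 1406 and 1721 CPM in peach libraries and 4.01, 4.57 and 8.11 CPM in almond, a log2 fold change of 8.26 ± 0.493 between the parents (adjusted p = 4.16e-07). The almond levels of both rested on few read pairs, since the lowest was 52 counts, and whether almond reads of these genes failed to match the peach model was not tested. Prupe.5G237200.1 exceeded the lowest member mean, 548.9 CPM, in its peach libraries only, and Prupe.4G225300.1 in its hybrid and peach libraries only. The rule let both in through genotypes where they were high. Their fold changes, also those of the hybrid given below, are therefore not independent of the rule.

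In the other direction the members lower in peach were not near absence. Prupe.7G051800.1 had 2603, 1012 and 1724 CPM in hybrid libraries, 93.8, 89.6 and 60.9 CPM in peach libraries and 3482, 2767 and 742 CPM in almond, a log2 fold change of −4.75 ± 0.548 between peach and almond (SE, adjusted p = 5.97e-05, edgeR). The peach libraries were below all others, and almond library 3 was the lowest outside peach. Prupe.6G041500.1 had 2182, 545 and 1094 CPM in hybrid libraries, 70.8, 49.3 and 127 CPM in peach libraries and 2638, 1955 and 1115 CPM in almond, a log2 fold change of −4.45 ± 0.547 (adjusted p = 9.14e-05). Libraries of the same genotype were far apart, most so those of almond for the first gene and those of the hybrid for the second. Both genes were under the lowest member mean, 548.9 CPM, in all peach libraries. They entered the members through the other genotypes, so that their fold changes too depend on the rule.

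The remaining members called between the parents had log2 fold changes of 1.05 to 3.93 where higher in peach, and of −3.67 to −1.21 where lower. The libraries of the parents did not overlap for 77 members, 47 with peach above and 30 with peach below almond, against 45.6% of all features, 20.8% with peach above and 24.8% with peach below. In percent of the members these were 38.5% in all, 23.5% with peach above and 15% with peach below, and the differences from the background were not tested.

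**Figure D3:**
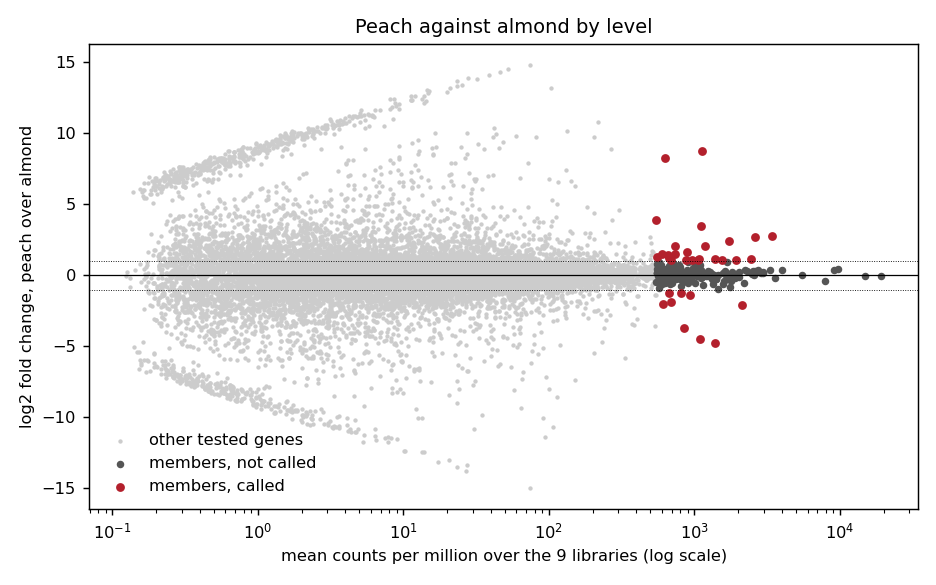
Log2 fold change of peach over almond (vertical axis) against the mean CPM over the 9 libraries (horizontal axis, log scale) for the tested genes (light points), the members not called (dark) and the members called (red), with dotted lines at a log2 fold change of 1 in either direction. The 33 called members lie between −4.75 and 8.75, and 24 of them are above 0.

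Against almond, 13 members (6.5%) were called in the hybrid, 12 higher and 1 lower, where 7.61% of all features were called, 5.62% higher and 1.99% lower. Of the 12, 10 were also among the 24 members called higher in peach than in almond. The largest differences were those of the same genes as between the parents, with a log2 fold change of 7.41 ± 0.315 for Prupe.4G225300.1 (SE, adjusted p = 1.29e-07, edgeR) and of 5.48 ± 0.439 for Prupe.5G237200.1 (adjusted p = 1.06e-05). The libraries of the hybrid did not overlap with those of almond for 65 members, 41 above and 24 below, against 32.2% of all features, 16.6% above and 15.6% below. In percent of the members these were 32.5% in all, 20.5% above and 12.0% below. The total was near the background, while the shares by direction differed from it, and these differences were not tested. With no minimum fold change 20 members were called, 19 higher and 1 lower in the hybrid, against 10.8% of all features, 7.41% higher and 3.36% lower.

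The only member called lower in the hybrid than in almond was Prupe.6G029500.1. It had 471, 535 and 513 CPM in hybrid libraries, 713, 1053 and 722 CPM in peach libraries and 911, 1072 and 1169 CPM in almond. All 3 hybrid libraries were below all parental ones. The log2 fold change was −1.04 ± 0.197 (SE, adjusted p = 0.00547, edgeR) and lay close to the minimum. The call was lost without hybrid library 1, where it was −0.96, without almond library 2, where it was −0.99, and without almond library 3, where it was −0.93.

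Against peach, 14 members (7.0%) were called in the hybrid, 6 higher and 8 lower, where 7.51% of all features were called, 5.2% higher and 2.31% lower. Higher in the hybrid were Prupe.7G051800.1, with a log2 fold change of 4.40 ± 0.539 (SE, adjusted p = 0.000342, edgeR), and Prupe.6G041500.1 with 3.91 ± 0.533 (adjusted p = 0.000725), whose libraries are given above. Lower in the hybrid was Prupe.5G237200.1, with −2.78 ± 0.379 (adjusted p = 0.000732), a member at which the 3 hybrid libraries were also far above those of almond.

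Prupe.1G128700.1 was next among those lower than in peach. It had 435, 494 and 523 CPM in hybrid libraries, 1408, 1036 and 1690 CPM in peach libraries and 339, 348 and 327 CPM in almond. The hybrid libraries were below all peach libraries and above all almond libraries, but much closer to almond. The log2 fold change was −1.56 ± 0.176 between hybrid and peach (SE, adjusted p = 0.000189, edgeR) and 0.54 ± 0.173 between hybrid and almond, which did not pass (adjusted p = 0.0742). The libraries of hybrid and peach did not overlap for 63 members, 26 with the hybrid above and 37 with the hybrid below, against 32.8% of all features, 19.1% above and 13.7% below. With no minimum fold change 26 members were called, 11 higher and 15 lower in the hybrid, against 11.1% of all features, 6.89% higher and 4.22% lower.

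Over the 3 comparisons 38 members (19.0%) were called at least once, against 22.8% of all features, and 162 never. Of the 24 members higher in peach than in almond, the hybrid was called above almond in 10 and below peach in 7, in 6 of them against both, and against neither parent in 13. Of the 9 members lower in peach, the hybrid was called above peach in 5 and against neither parent in 4. The comparisons share libraries, so that these counts are not independent of each other. In 5 members the hybrid was called against a parent while the parents were not called apart.

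How the members compared with genes of lower rank depended on the rule for a call. With the minimum fold change, between peach and almond 16.5% of the members were called, against 12.25% of the next 800 genes in rank, which reach to rank 1000, 12.1% of the 4000 genes that follow, to rank 5000, and 24.7% of the remaining 14036 tested genes. Between hybrid and almond the shares were 6.5% of the members and 4.125, 4.075 and 8.76% of these 3 bands, and between hybrid and peach 7.0% of the members and 4.625, 4.475 and 8.46%. Under this rule the members were above the next 2 bands and under the last in all 3 comparisons. Without the minimum, 27% of the members were called between peach and almond, against 31.0, 31.85 and 33.0% of the bands, so that the members had the lowest share. Between hybrid and almond it was then 10% of the members against 8.5, 10.6 and 10.9%, and between hybrid and peach 13.0% against 12.0, 11.2 and 10.9%. Libraries of peach and almond that did not overlap were found for 38.5% of the members, again the lowest share, against 43.5, 46.65 and 45.4% of the bands. None of these differences was tested. The rule took a mean over the same 9 libraries, so that it also lets in genes high in part of the genotypes. The shares of the members called are therefore not free of the rule and are only described beside the bands.

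The sizes of the differences, like the calls with a minimum fold change, were larger for the members than in the next 2 bands and smaller than in the last. The median absolute log2 fold change between peach and almond was 0.33 for the members and 0.29, 0.30 and 0.67 for the bands. It was 0.23 for the members and 0.21, 0.20 and 0.42 for the bands between hybrid and almond, and 0.28 for the members and 0.21, 0.20 and 0.42 for the bands between hybrid and peach. Between peach and almond 70.5% of the members lay within 1.5-fold of each other, and between hybrid and almond 83.5%. These sizes depend on the rule in the same way as the calls, and their differences between the bands were not tested.

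**Figure D4:**
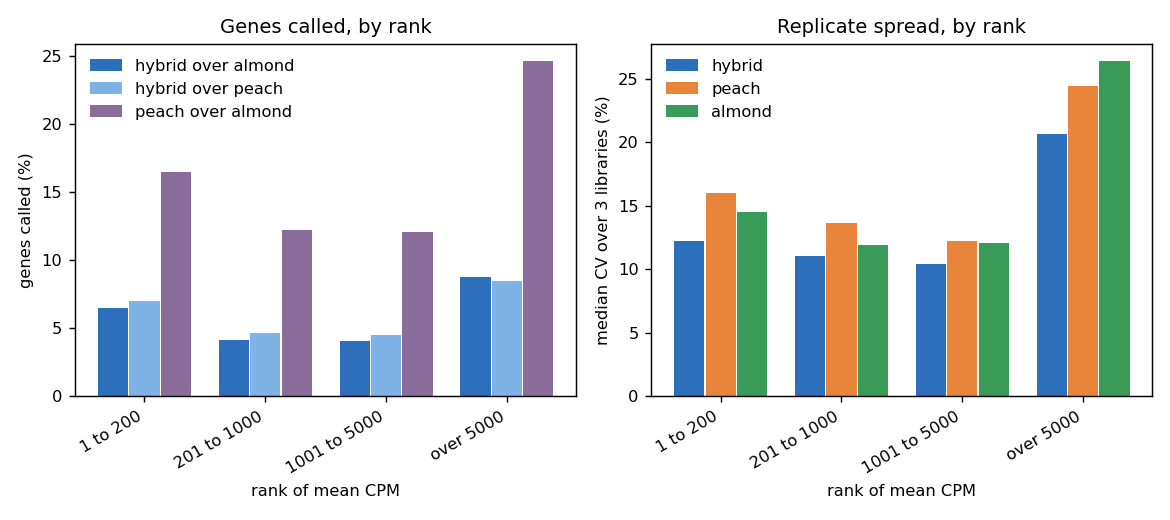
Left, percent of genes called in each of the 3 comparisons (bars), and right, median coefficient of variation over 3 libraries in percent for the hybrid, peach and almond (bars), for genes in 4 bands of rank of the mean CPM (horizontal axes). The members, rank 1 to 200, are at 6.5, 7.0 and 16.5% called and at median coefficients of 12.2, 16.0 and 14.5%, above the next 2 bands and below the last.

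The replicate spread of the members was wider than in the next 2 bands and narrower than in the last. The coefficient of variation (CV, the SD over the mean of 3 libraries) had a median over the members of 12.2% in the hybrid, 16.0% in peach and 14.5% in almond. For the next 800 genes it was 11.1% in the hybrid, 13.6% in peach and 11.9% in almond, and for the 4000 after them 10.4, 12.2 and 12.1%. For the remaining genes it was 20.6, 24.5 and 26.4% in the same order. The biological coefficient of variation that edgeR estimated per gene had a median of 0.183 for the members and 0.168, 0.160 and 0.292 for the bands. A mean over the 9 libraries also lets in genes through single high libraries, and such genes have a wide spread. The spread of the members is therefore not free of the rule, and its differences from the bands were not tested.

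The medians hide a wide range, from 1.16 to 66.8% in the hybrid, from 0.573 to 76.1% in peach and from 0.764 to 67.8% in almond. A CV under 10% was found for 78 members in the hybrid, 51 in peach and 58 in almond. Over 50% were 6 members in the hybrid, 3 in peach and 7 in almond. Prupe.2G012200.1 varied least, with a mean CV of 3.17%. It had 694, 708 and 720 CPM in hybrid libraries, 668, 671 and 663 CPM in peach libraries and 591, 513 and 551 CPM in almond, with the hybrid above all other libraries by a narrow margin. Prupe.6G307000.1 and Prupe.6G257200.1 followed with mean CVs of 4.03 and 4.07%.

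At the other end Prupe.1G021800.1 had a mean CV of 52.3%, with 2201, 1472 and 1385 CPM in hybrid libraries, 472, 1557 and 458 CPM in peach libraries and 3343, 6115 and 2041 CPM in almond. Peach library 3 was more than 3 times the other peach libraries. The member was called lower in peach than in almond, with a log2 fold change of −2.11 ± 0.516 (SE, adjusted p = 0.00846, edgeR), but the call was lost when the test was made against the minimum fold change (adjusted p = 0.0604, glmTreat of edgeR). Prupe.4G255600.1, with a mean CV of 51.6%, had 720, 506 and 182 CPM in hybrid libraries, 403, 541 and 300.5 CPM in peach libraries and 1370, 910 and 238 CPM in almond. Its genotypes overlapped, and it was called in no comparison. Prupe.6G041500.1, described with the parents, was the third of these with 51.4%.

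The spread was not shared evenly among the libraries. Hybrid library 1 was the one farthest from the other two for 140 of the 200 members, and 15 members were over 1 log2 unit away. Hybrid libraries 2 and 3 differed by a median of 0.10 on the log2 scale and 195 members were within 1.5-fold, while library 1 differed from them by 0.27 and 0.30, with 160 members within 1.5-fold in each case. Without hybrid library 1 the median CV of the hybrid, over libraries 2 and 3 alone, was 4.82%. Almond library 3 was the farthest for 110 members. Without it the median CV of almond, over libraries 1 and 2 alone, was 8.28%. Such CVs of fewer libraries are not directly comparable with those of 3, and they are not given for the other bands.

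In peach no library stood apart in this way, with 47, 82 and 71 members for which libraries 1, 3 and 4 were the farthest. Pairs of peach libraries differed by a median of 0.24 to 0.32 on the log2 scale. Across genotypes the median differences of single pairs ran from 0.23 to 0.46 between hybrid and almond, from 0.23 to 0.48 between hybrid and peach and from 0.34 to 0.46 between peach and almond. The closest pairs of hybrid and parental libraries were therefore nearer to each other, over the members, than hybrid library 1 was to the other hybrid libraries.

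Additivity was examined with the hybrid mean CPM set against those of the parents. For 95 members (47.5%) it lay between the parents, for 43 (21.5%) above both and for 62 (31.0%) below both. Of the next 800 genes, 54.5% lay between, 27.5% above both and 18.0% below both, and of the 4000 after them the shares were 57.2, 24.9 and 17.9%. For the remaining genes they were 58.4, 21.0 and 20.7%. The members were thus below both parents more often than the genes of any other band, a difference that was not tested. Few of these positions were clear of the spread between libraries. Hybrid library 1, which stood apart from the other hybrid libraries, was the lowest of them for 114 members and the highest for 70. Its part in these positions was not tested. The 3 hybrid libraries were outside all 6 parental ones for 8 members, 5 above and 3 below, against 3.26% of all features, 1.68% above and 1.58% below.

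Measured as the log2 ratio of the hybrid to the arithmetic mid-parent, the members had a median of −0.03 with quartiles of −0.20 and 0.14. The medians of the bands were 0.03, 0.02 and −0.03. The hybrid lay within 1.2-fold of the mid-parent level for 139 members (69.5%), against 75.4% of the next 800 genes, 79.1% of the 4000 after them and 50.8% of the rest. In 108 of the 200 members it was below the mid-parent level.

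On the log2 scale, where the hybrid is set against the mean of the parents' log2 levels, 11 members (5.5%) departed in edgeR's quasi-likelihood test at an adjusted p under 0.05, 10 higher and 1 lower, where 5.07% of all features did, 4.33% higher and 0.739% lower. The count was 7 without hybrid library 1, hybrid library 2 or almond library 2, and 5 without hybrid library 3. A hybrid at the arithmetic mean of unequal parents lies above the mean of their log2 levels. A call above the log2 mean is therefore not in itself a departure from additivity. Against the arithmetic mean, with a Wald test on the coefficients of the same edgeR fit, 4 members (2.0%) departed, 1 higher and 3 lower, where 1.04% of all features did, 0.367% higher and 0.671% lower. In 2 members both tests called the same direction.

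These 2 were Prupe.8G215700.1 and Prupe.6G029500.1. Prupe.8G215700.1 had 1184, 881 and 912 CPM in hybrid libraries, 503, 478 and 562 CPM in peach libraries and 536, 628 and 418 CPM in almond. Every hybrid library was above every parental library, and the parents overlapped. It was 0.92 ± 0.154 above the log2 mean of the parents (SE, adjusted p = 0.00426, edgeR) and 0.92 ± 0.158 above the arithmetic mean (adjusted p = 0.0213, Wald test from the edgeR fit). Prupe.6G029500.1 fell by 0.91 ± 0.176 below the log2 mean (adjusted p = 0.0102), a call that was lost without any single hybrid library, and by 0.91 ± 0.169 below the arithmetic mean (adjusted p = 0.0277).

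Where the parents were far apart, the direction could differ between the scales. Prupe.5G237200.1 was 1.35 ± 0.303 above the mean of the log2 levels (SE, adjusted p = 0.0236, edgeR) and −1.78 ± 0.354 relative to the arithmetic mean (adjusted p = 0.0396, Wald test). Its call against the log2 mean was lost without hybrid library 2, hybrid library 3, peach library 3, almond library 1 or almond library 2, where the log2 difference was 1.16 to 1.32 and the adjusted p in edgeR 0.0534 to 0.114. Prupe.4G225300.1 was 3.03 ± 0.201 above the log2 mean (adjusted p = 6.12e-06, edgeR), while its log2 ratio to the arithmetic mean was −0.34 ± 0.235 (adjusted p = 0.664). Prupe.1G128700.1, whose hybrid level was near that of almond, was called only against the arithmetic mean, with −0.87 ± 0.159 (adjusted p = 0.0262). Prupe.7G050900.1 and Prupe.7G051800.1 were also called above the log2 mean, and these calls were kept under all 17 alternatives. Neither was called against the arithmetic mean.

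No member was called above or below both parents, 0 of 200, where 0.257% of all features were, 0.0681% above and 0.189% below, 49 in number. DESeq2 also gave 0, and at an unadjusted p under 0.05 against each parent and the same minimum fold change there were 0 members, against 149 of all features. Without a minimum fold change 2 members passed in edgeR, Prupe.8G215700.1 above and Prupe.6G029500.1 below both parents. The share of all features under that rule is not given here, so that this count has no background beside it. At an unadjusted p under 0.05 without a minimum, 3 members passed, against 401 (2.10%) of all features.

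Among the 33 members called between the parents, the hybrid mean lay between them in 31 (93.9%), above both in 2 and below both in 0. In the bands the share between was 85.7% of 98 genes, 89.4% of 483 and 88.8% of 3463 genes called apart. On a scale from 0 at the almond mean to 1 at the peach mean, the hybrid had a median position of 0.409 for the members, and of 0.453, 0.496 and 0.509 for the bands. In 13 of the 24 members higher in peach the hybrid was below the arithmetic mean, and in 6 of the 9 lower in peach it was above it.

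**Figure D5:**
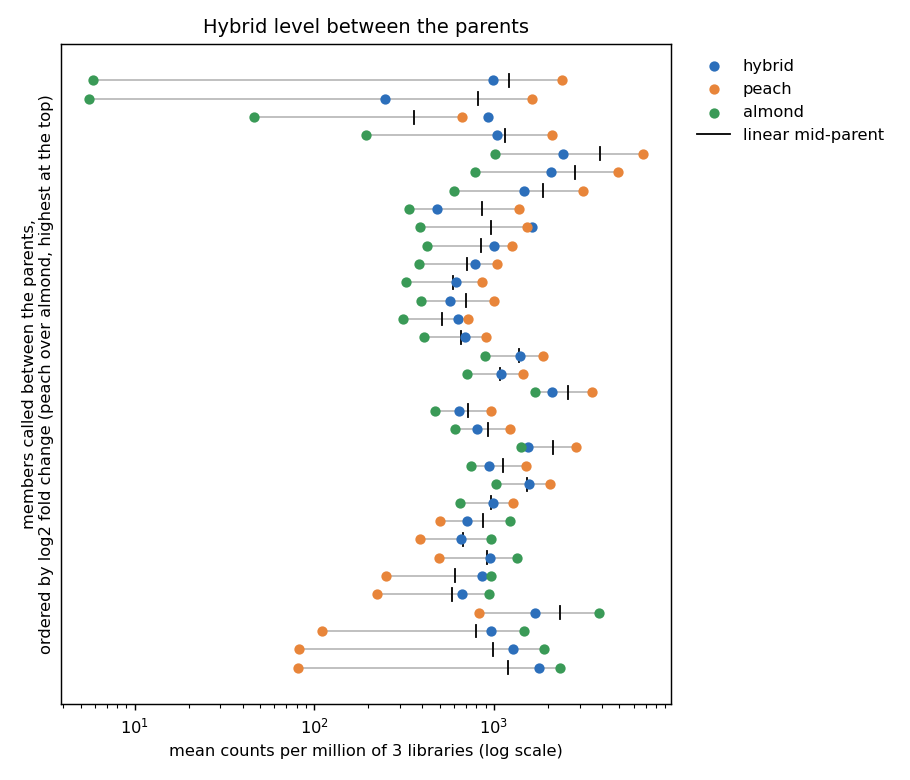
Mean level of 3 libraries (horizontal axis, CPM on a log scale) in the hybrid, peach and almond (points) and the arithmetic mid-parent level (black ticks) for each of the 33 members called between the parents, ordered by the log2 fold change of peach over almond. In 31 of them the hybrid point lies between the parental points.

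The number that follows Prupe in the IDs was looked at after the values were seen. Of the 24 members higher in peach, 14 carry the number 1 and 5 the number 4, while of all 200 members 47 carry the number 1 and 25 the number 4. Of the 22274 gene models, 4918 carry the number 1 and 2365 the number 4. The numbers among all features called higher in peach are not given here, and no excess was tested. Among the 14 are the 5 members of the run that follows. The IDs from Prupe.1G498300.1 to Prupe.1G498800.1 hold 5 members in a run, and all 5 were called higher in peach than in almond, with log2 fold changes of 1.13 to 3.50, and had hybrid means between the parents. The pattern was not particular to the members, since of 6 gene models listed next to the run that are not members 3 were also called higher in peach, with log2 fold changes of up to 7.26. Whether these gene models are near-identical copies that share reads could not be checked with the files, and their values are uncertain for that reason.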

How the data were processed

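RNA of leaves was sequenced in 9 libraries, 3 per genotype, from the stranded TruSeq protocol for messenger RNA as pairs of 150 base reads. The authors ran RSEM with Bowtie2 to align the reads to peach transcript models joined with representative transposable element copies. The counts were deposited by the authors without normalization, for 22274 gene models and 60 element families, and 1 line holding 2 records was separated here. RSEM divides reads between near-identical copies. Versions, genome build and annotation release are not given in the sources used here. The bisulphite tables and the authors' transformed values were not used here.

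Genotypes were taken from the titles of the libraries. Members were ranked by mean CPM. Tests on the counts used edgeR 4.0.16 in R 4.3.3 (filterByExpr, TMM factors of 0.943 to 1.05, quasi-likelihood test, 1 fit of all 9 libraries with genotype as the factor), with Benjamini-Hochberg adjustment over all 19085 features, and calls needed an adjusted p under 0.05 with an absolute log2 fold change no smaller than 1. For the mean of the parents no minimum was used. The edgeR steps were tested on simulated data. DESeq2 1.42.0, other scalings, filters, minimum fold changes, member choices, a replicate block and leaving out each library were tried. Shares, CVs and positions were computed with Python 3.11.15, pandas 2.3.3 and numpy 2.4.6, and drawn with matplotlib 3.10.9.

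The members, lists and tests were chosen with earlier results of these data known. Named are the 10 highest members, those with the largest fold changes in each comparison (at most 2 in each direction, since the IDs have no names), some of the members called against the mid-parent level, the extremes of CV and the genes at the limit of the rule. The run of IDs was named after its values were seen.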

Additional observations from a re-analysis of the deposited data

How the results depend on the processing

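The counts in this section are of members, and most are given without the share of all features. They show how the calls depend on the settings and do not compare the members with other genes. DESeq2's test called 18 members against the log2 mean of the parents, 16 higher and 2 lower, among them the 11 called by edgeR. It called 14, 14 and 33 members between hybrid and almond, hybrid and peach, and peach and almond. A test against the minimum fold change (glmTreat) left 5, 5 and 17 members in these comparisons. No minimum gave 20, 26 and 54 members, against 10.8, 11.1 and 32.7% of all features. Against the arithmetic mean of the parents 4 members departed, against 1.04% of all features. Among 200 members picked by mean log2 CPM, 192 of them the same, 6 departed from the log2 mean.

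Leaving out each library in turn gave 11 to 15 members between hybrid and almond, 10 to 15 between hybrid and peach, 28 to 37 between peach and almond, 5 to 10 against the log2 mean and 0 against both parents. The median CV of a genotype, over those of its libraries that remained, ran from 4.82 to 14.7% in the hybrid. It ran from 11.6 to 15.4% in peach and from 8.28 to 15.9% in almond. The hybrid mean was between the parents for 84 to 113 members. Without hybrid library 1, 11 members were called between hybrid and almond, an alternative chosen after seeing the data.

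Deviations from the genotype mean were correlated between libraries of different genotypes. The correlations ran from −0.06 to 0.15 for same-numbered libraries and from −0.195 to 0.104 for differently numbered ones. Whether the numbers pair the samples cannot be decided from these values, since each deviation rests on the few libraries of a genotype. With the numbers as a replicate block, 13, 9 and 27 members were called in the 3 comparisons, 10 against the log2 mean and 0 against both parents. Without scaling factors the median log2 fold change of all features between peach and almond was −0.07 and that of the members 0.06. The block also ended the peach against almond call of Prupe.1G021800.1 (−1.60, adjusted p = 0.0981, edgeR) and the log2 mean call of Prupe.5G237200.1 (1.21, adjusted p = 0.082). Of 46 calls followed singly, some of them in members not named here, 27 were kept under every alternative run and 19 were lost under at least 1, or 11 with glmTreat left aside. No direction of these results was reversed. Depth limited most the almond levels of the members near absence there.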
